A study of Canis lupus familiaris with 18 samples.

Results

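Natriuretic peptide B (NPPB, which encodes BNP), the natriuretic peptide receptors NPR1, NPR2 and NPR3 and the protease CORIN were followed in the right atrium (RA) and right ventricle (RV) of dogs with pacing-induced heart failure (HF). The members were the probe sets whose only gene symbol in the platform annotation was 1 of these 5 names. They numbered 10 of the 42924 probe sets on the array, or 5 of 15115 named genes: 1 each for NPPB, NPR1 and CORIN, 3 for NPR2 and 4 for NPR3. NPPA, the gene of the atrial peptide ANP, had 0 probe sets under its own symbol and was not analysed here.

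BNP is a hormone of heart muscle cells, released when the chamber wall is stretched. Its precursor is cut by membrane-bound proteases, of which corin is the one best known in the heart, and the hormone then acts on the guanylyl cyclase receptor encoded by NPR1, which makes cyclic GMP (cGMP). NPR2 is the related cyclase receptor for the C-type peptide, and NPR3 is the clearance receptor, which takes up all the peptides of the family and has no cyclase of its own. Cardiac NPPB is widely used as a marker of wall stress and of heart failure.

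The 18 Canine_2 arrays measured total RNA from small pieces of frozen tissue in 6 groups of 3: RA and RV from control dogs, from early HF after 2 weeks of ventricular tachypacing, and from late HF after 5 weeks. A second label states the pacing as 2 to 3 weeks and 5 to 6 weeks. The animals were adult dogs, mongrel or beagle, with no breed given for single samples, and HF dogs were paced continuously by an implanted device; what the controls received is not given in the sources used here. The replicates are called biological but no animal is named, so the tests speak only of how far these samples spread, which may be partly technical.

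Values are log2 signals, so a difference of 1 is a doubling. The array medians lay between 5.65 and 5.75 and the highest signal was 14.49. The values carry no detection calls, so a low signal cannot be set apart from background, and signals of different probe sets are not compared with each other because probes differ in affinity. In pieces of whole tissue, fewer cells of a type and less RNA per cell cannot be told apart. Differences are given with the standard error (SE) of a limma fit over all probe sets, with n = 3 arrays per group, and "called" means a limma p below 0.05 after Benjamini-Hochberg adjustment over the 25755 probe sets tested. Of the 10 member probe sets, 8 passed the signal filter (mean log2 signal of at least 5.31), and 2 of the 4 NPR3 probe sets fell below it. Where the arrays of 2 groups are said not to overlap, the share of all probe sets that did the same was not counted.

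The library labelled RA late 3 stood apart from its label. Ventricular MYL2 was 14.17 in it, against 10.99 and 10.59 in the other late RA arrays and 12.76 to 14.42 over the 9 RV arrays. Ventricular MYL3 was 13.89, and the atrial light chain MYL4 was 11.65, against 13.88 to 14.05 in the other 8 RA arrays and 7.89 to 11.79 in RV. GJA5, the atrial connexin, went the other way: at 8.74 it lay within the range of the other RA arrays (8.46 to 9.21) and above all RV arrays (6.47 to 7.52). Results that rest on this library are therefore given over all 18 arrays and over the 17 without it, and it also enters every other comparison through the shared estimate of spread.

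The mean NPPB signal was higher in RA than in RV in every condition, though not in every single array. NPPB was low in control RV, and its highest signals were in RA of early HF. In RA controls it was 8.59, 11.21 and 12.38 in replicates 1 to 3 (mean 10.73, SD 1.94). In RA of early HF it was 13.17, 13.08 and 12.87 (mean 13.04, SD 0.15). All early HF arrays lay above all RA controls, and the spread among RA controls was far larger than that among the early HF arrays.

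In RA of late HF the NPPB signal was 12.86 and 12.47 in replicates 1 and 2 and 7.14 in the library labelled RA late 3. The first pair lay above every control by a small margin, and the third lay below every other RA array. In RV controls NPPB was 6.39, 6.30 and 6.38 (mean 6.36, SD 0.05), the tightest group of all. In RV of early HF it was 11.04, 6.34 and 8.34 (SD 2.36), so that 1 array stayed at the control level while the others lay above it. In RV of late HF it was 7.25, 8.95 and 7.46 (mean 7.89, SD 0.93), and all 3 arrays were above all RV controls.

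**Figure D1:**
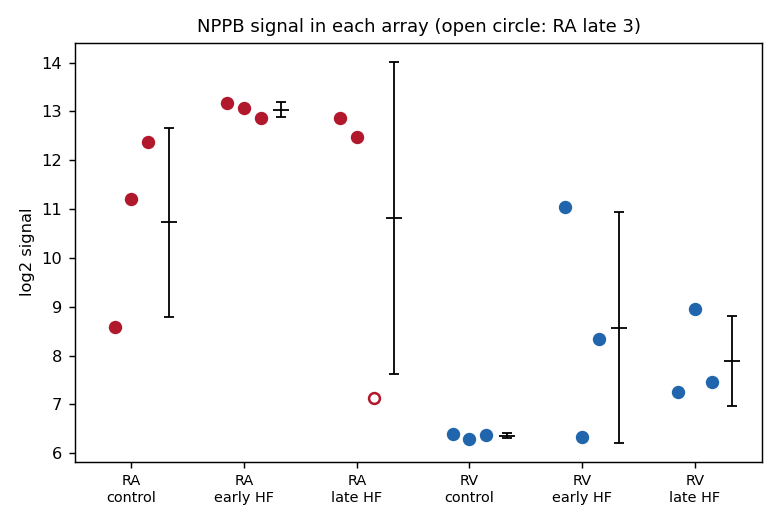
NPPB log2 signal (vertical axis) in each of the 18 arrays, by chamber and stage (RA red, RV blue, open circle the library labelled RA late 3). Bars give the mean and SD of the 3 arrays; RV controls sit at 6.30 to 6.39, RA early HF at 12.87 to 13.17, and the other groups are spread widely.

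Ordered by mean, the groups ran from RA early HF (13.04) through RA late HF (10.82), RA control (10.73), RV early HF (8.57) and RV late HF (7.89) to RV control (6.36). No difference between neighbouring groups within a chamber was called by limma, which uses 1 spread shared by all groups. The lowest RA early HF array (12.87) still lay just above the highest of RA late HF (12.86). All RV late HF arrays (from 7.25) lay above all RV controls (to 6.39). The arrays of RA control and RV early HF, the neighbours across chambers, overlapped. The mean of RA late HF was 12.67 without RA late 3, still below early HF.

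NPPB was higher in RA than in RV as a mean over the stages. Averaged over the 3 stages the difference was 3.92 (SE 0.74), a 15.2-fold higher signal (95% confidence interval 5.1 to 45.2), with adjusted p = 0.00263 by limma. An exact two-sided permutation test of the arrays within each stage gave p = 0.001 among 8000 arrangements. It moved arrays freely between the chambers and kept no pairs, so it is exact only for unpaired arrays. With RA late 3 left out the difference was 4.54 (SE 0.55, 23.2-fold, limma adjusted p = 2.28e-05), and the exact permutation p was 0.00025, the smallest that this test can give.

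Within single stages the NPPB chamber difference was not called over all 18 arrays, and the call changed with the arrays and the fit used. In controls RA exceeded RV by 4.37 (SE 1.29, limma adjusted p = 0.0829), and without RA late 3, which is not in this comparison, the SE was 0.92 and the adjusted p 0.00869. In early HF the difference was 4.47 (SE 1.29, limma adjusted p = 0.0526), and 0.00508 without that library. It was also called in early HF without RA control 1 (0.0456), RA late 1 (0.0311) or RV early 1 (0.0277), and in a fit of the compared groups alone (0.0065 in controls and 0.0249 in early HF). In both of these comparisons all 3 RA arrays lay above all 3 RV arrays.

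In late HF the NPPB difference was 2.94 (SE 1.29, limma adjusted p = 0.402) with all arrays, and the chambers overlapped. In the 17 arrays it was 4.78 (SE 1.03, adjusted p = 0.0196) and they did not. Same-numbered RA and RV arrays deviated from their group means together in controls and early HF, so the numbers were treated there as pairs. With these pairs as a replicate block, in a fit of the control and early HF arrays only, the limma adjusted p for NPPB was 0.00298 in controls and 0.00166 in early HF. A block over all 18 arrays, which also joins the late HF arrays whose numbers did not pair, gave 0.0417 and 0.0247. The paired RA minus RV differences were 2.20, 4.91 and 6.00 in controls and 2.13, 6.74 and 4.53 in early HF. Any pairing would give positive differences here, since the chambers did not overlap in these stages.

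Against controls, no HF difference in NPPB was called in either chamber. In RA the early difference was 2.31 (SE 1.29, 4.97-fold, 95% confidence interval 0.751 to 32.9), with limma adjusted p = 0.464. The late difference was 0.10 (SE 1.29, adjusted p = 0.984), and 1.94 (SE 1.03, adjusted p = 0.319) without RA late 3. In RV the limma differences were 2.22 in early HF (SE 1.29, adjusted p = 0.712) and 1.53 in late HF (SE 1.29, adjusted p = 0.732). With all arrays the 95% confidence intervals are wide enough to hold both no change and a rise of over 10-fold in each of these RV comparisons and in early RA.

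With the HF arrays of RA pooled and RA late 3 left out, 5 of 5 HF arrays were above 3 of 3 controls, with a difference of means of 2.16 and an exact two-sided permutation p = 0.0179, the smallest this split allows. With RA late 3 included, the difference was 1.20 and the exact permutation p 0.476. In RV the pooled difference was 1.87 (exact permutation p = 0.0952). These exact p-values are not adjusted for the 10 member probe sets tested in the same way. The share of all probe sets whose RA arrays separated like this was not counted. By limma, RA HF against control over both stages without RA late 3 held 20.1% of all tested probe sets at an unadjusted p below 0.05. NPPB was not called there (limma adjusted p = 0.16).

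The difference between the chambers in the NPPB effect of HF was not called. In early HF the RA effect exceeded the RV effect by 0.10 (SE 1.82, limma adjusted p = 0.998, 95% confidence interval -3.76 to 3.95). For late HF the RA effect minus the RV effect was -1.43 (SE 1.82, limma adjusted p = 0.876), and 0.41 (SE 1.38, adjusted p = 0.956) without RA late 3. Late against early HF gave -2.22 in RA (SE 1.29, limma adjusted p = 0.715), -0.38 without RA late 3 (SE 1.03, adjusted p = 0.936), and -0.69 in RV (SE 1.29, adjusted p = 0.993).

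Other values also varied among these arrays, not always with NPPB. Among RV arrays the atrial light chain MYL4 varied from 7.89 to 11.79: it was 10.88, 7.98 and 10.36 in RV early HF replicates 1 to 3, where NPPB was 11.04, 6.34 and 8.34. It was also 8.10, 7.89 and 10.39 in RV controls, where NPPB was flat, and 8.69, 11.79 and 11.14 in RV late HF, where NPPB was 7.25, 8.95 and 7.46. The mean of 9 of 11 atrial myocyte markers was 7.57 to 8.07 in RV controls, 7.70 to 8.13 in RV early HF, 8.16 to 8.43 in RV late HF and 9.95 to 10.20 in RA controls. The part of the atrial markers in the RV values of NPPB was not tested.

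In RA of early HF the mean of 11 of 12 fibroblast markers was 10.26 to 11.11, against 9.35 to 9.55 in RA controls, and 1 of 11 was called higher (7 of 11 in the 17 arrays). That of 10 of 10 macrophage markers was 8.0 to 8.87 against 7.31 to 7.50, with 0 of 10 called (5 of 10 in the 17 arrays). The mean of 7 of 9 cardiomyocyte markers was 12.30 to 12.69 against 12.83 to 12.93, with 1 of 7 called lower (2 of 7 in the 17 arrays). The mean of 6 of 8 ventricular markers was 8.27 to 9.16 against 7.61 to 8.20, with 0 of 6 called (2 of 6 higher in the 17 arrays), and MYL2 was 9.73, 12.06 and 10.53 against 6.04 to 9.38. The endothelial mean was 7.61 to 7.71 against 7.34 to 7.53, with 0 of 11 called (2 of 11 higher in the 17 arrays). The part of these lists in the NPPB values was not tested. As signs of RNA quality, the GAPDH 3' minus 5' signal lay between 0.25 and 0.63 in all groups. The actin 3' minus 5' signal was -0.41 to 0.69 in RA controls, -2.03 to -1.27 in RV controls and -1.88 in the library labelled RA late 3. The part of this actin signal in the chamber differences was not tested.

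CORIN, the protease that activates the atrial peptide and can cut the BNP precursor, was not called in any limma comparison of the 18 or the 17 arrays, and its RA and RV arrays overlapped in each stage. In RA controls it was 8.75, 8.90 and 8.51, and in RA of early HF 8.35, 8.01 and 7.59. All early HF arrays lay below all RA controls. In RA of late HF it was 7.92, 9.22 and 8.24, the widest spread of its groups, with 1 array above every control. CORIN in RV was 8.72, 8.36 and 8.04 in controls, 8.06, 8.42 and 8.22 in early HF and 8.41, 8.06 and 8.50 in late HF, groups that overlapped throughout.

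The early HF difference of CORIN in RA was -0.74 (SE 0.27, 95% confidence interval -1.31 to -0.16) and was not called (limma adjusted p = 0.216, and 0.165 without RA late 3). The exact permutation p was 0.10, the smallest that 3 against 3 arrays allow. In the other HF comparisons with control CORIN differed by -0.26 (RA late), -0.14 (RV early) and -0.05 (RV late), each with SE 0.27 and a limma adjusted p of at least 0.747. RA minus RV, averaged over stages, was 0.08 (SE 0.16, limma adjusted p = 0.774, 95% confidence interval -0.26 to 0.41). The cardiomyocyte marker means given above were lower in RA of early HF too, and their part in the CORIN values was not tested.

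NPR1, the cyclase receptor for ANP and BNP, had the flattest profile of the members. Its single probe set lay between 6.04 and 6.37 over all 18 arrays. The group means ran from 6.16 (RV late HF) to 6.31 (RV control), and all 4 HF groups had means below the control mean of their chamber by 0.03 to 0.15. The lowest limma adjusted p for HF against control in 1 stage was 0.605, for late HF in RV (-0.15, SE 0.09), where all 3 HF arrays lay below all controls. RA minus RV was -0.03 (SE 0.05, 95% confidence interval -0.13 to 0.08, limma adjusted p = 0.742; exact permutation p = 0.518). The mean signal of this probe set was at the 61.6th percentile of the array. This probe set is of a type that may cross-hybridise. So are those of CORIN, the NPR2 probe set with the highest signal and the stronger NPR3 probe set below the filter.

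NPR2, the cyclase receptor for the C-type peptide, had mean signals below control in most HF groups by small amounts that were not called. The NPR2 probe set with the highest signal was 7.94, 7.83 and 7.82 in RV controls. In RV of early HF it was 7.63, 7.68 and 7.68, and in RV of late HF 7.59, 7.55 and 7.71. All 6 RV arrays of HF therefore lay below all 3 RV controls, but the share of all probe sets with such a separation was not counted. At an unadjusted limma p below 0.05, HF against control in RV over both stages held 10.3% of all tested probe sets.

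For this NPR2 probe set, HF minus control in RV, averaged over both stages, was -0.22 (SE 0.08, limma adjusted p = 0.381). The exact permutation p of the 6 pooled arrays against 3 controls was 0.0119, the smallest that this split allows, with no adjustment for the other member probe sets. In RA it was 8.05, 7.85 and 7.80 in controls, 7.90, 7.83 and 7.66 in early HF and 7.68, 7.75 and 7.70 in late HF. The RA difference was -0.15 (SE 0.08, limma adjusted p = 0.441), and -0.14 without RA late 3.

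The other NPR2 probe sets gave a mixed picture. The NPR2 probe set second in signal, which correlated with the first at r = 0.835 over the 18 arrays, ranged from 6.94 to 7.56, and its HF differences averaged -0.21 (SE 0.11) in RA and -0.18 (SE 0.11) in RV, with limma adjusted p of 0.425 and 0.605. The weakest ranged from 5.75 to 6.12 and correlated with the first at r = 0.270. Its differences in single HF stages lay between -0.14 and 0.02. RA minus RV over the stages was 0.09 (SE 0.05, exact permutation p = 0.051) for the first probe set. It was 0.20 (SE 0.08, limma adjusted p = 0.0988, exact permutation p = 0.0183) for the second and -0.02 (exact permutation p = 0.693) for the weakest.

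**Figure D2:**
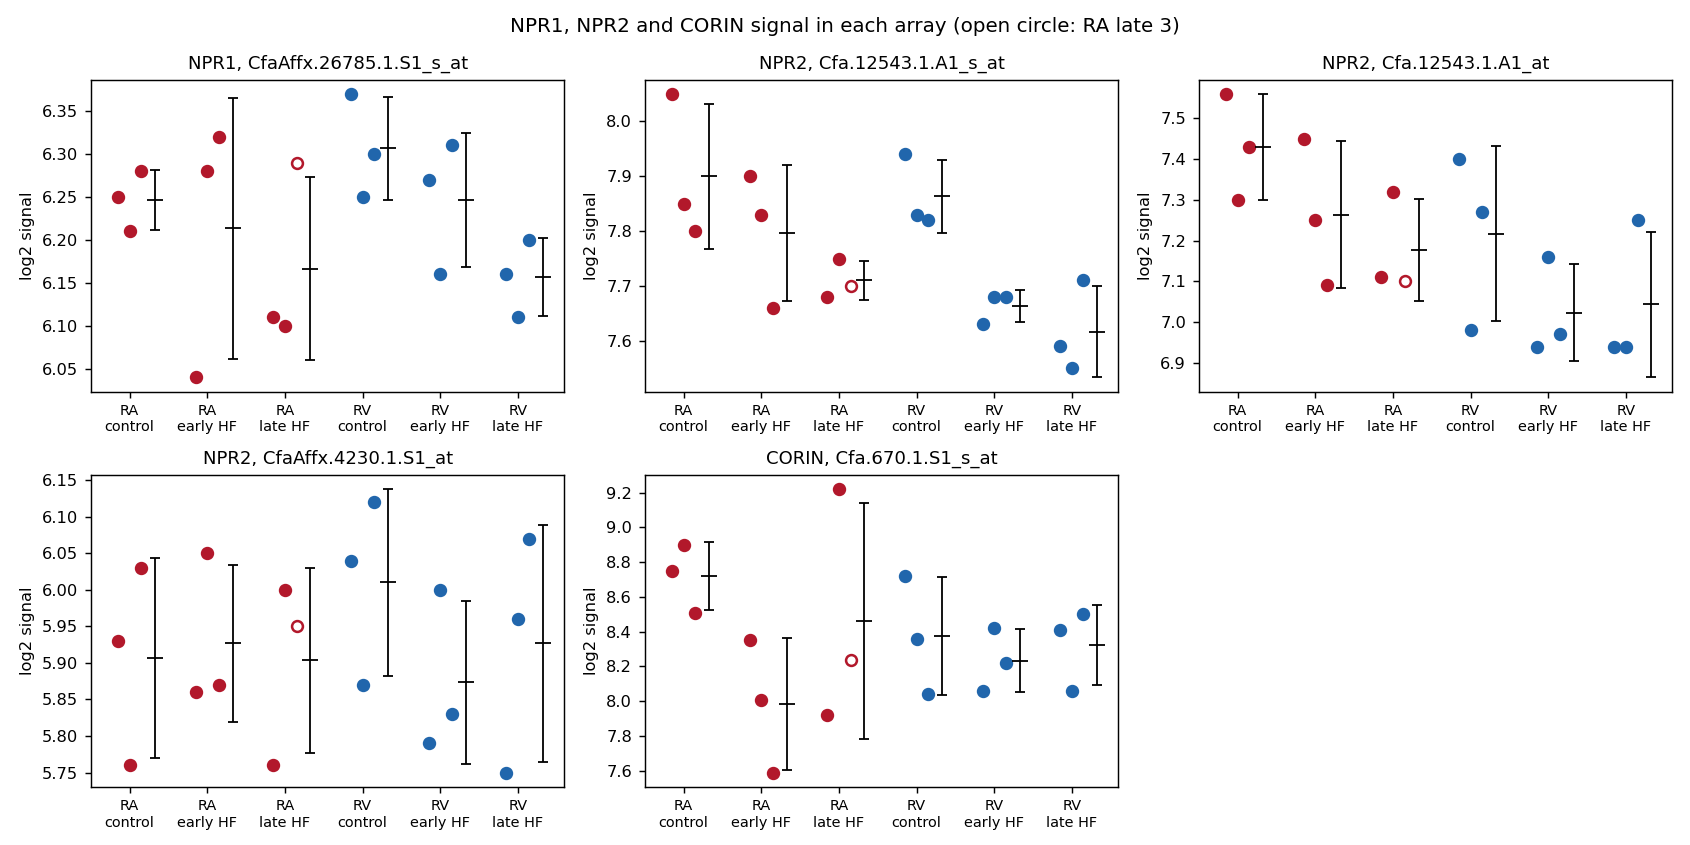
Log2 signal of the NPR1, NPR2 and CORIN probe sets in each array, with a vertical axis of its own in each panel (RA red, RV blue, open circle the library labelled RA late 3; bars mean and SD, n = 3). NPR1 spans 6.04 to 6.37, and CORIN has its lowest array, 7.59, in RA of early HF.

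NPR3, the clearance receptor, was higher in RA than in RV by all 4 of its probe sets, in every stage. Its strongest probe set was 8.07, 8.81 and 8.69 in RA controls and 6.68, 6.57 and 6.81 in RV controls. In early HF it was 7.83, 8.27 and 7.87 in RA and 6.87, 6.65 and 7.12 in RV. In late HF it was 8.02, 8.10 and 7.44 in RA and 6.69, 7.32 and 6.70 in RV. No RA array, RA late 3 included, lay below any RV array.

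The RA minus RV difference of this NPR3 probe set was 1.84 in controls (SE 0.22, 3.57-fold, limma adjusted p = 0.000469). In early HF it was 1.11 (SE 0.22, 2.16-fold, limma adjusted p = 0.0103). In late HF it was 0.95 (SE 0.22, 1.93-fold) and not called over all arrays (limma adjusted p = 0.183); without RA late 3 it was 1.16 (SE 0.22, adjusted p = 0.0102). Averaged over stages it was 1.30 (SE 0.13, 2.46-fold, 95% confidence interval 2.04 to 2.97, limma adjusted p = 2.12e-05), and the exact permutation p was 0.00025, the smallest possible. In the 6 pairs of controls and early HF the differences ran from 0.75 to 2.24. They would be positive under any pairing, since the chambers did not overlap.

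The NPR3 probe set second in signal was 6.13, 7.07 and 6.58 in RA controls against 4.73, 4.70 and 5.07 in RV controls. It passed the signal filter through RA alone: its RV means were 4.83, 5.06 and 5.10, below the limit in every stage, so its differences come from the fit of all 42924 probe sets with no filter. RA exceeded RV by 1.76 in controls (SE 0.27, limma adjusted p = 0.00221), by 1.29 in early HF (adjusted p = 0.0152) and by 1.12 in late HF (adjusted p = 0.218; 0.00402 without RA late 3). The 2 probe sets below the signal filter showed the same order at lower signals. The stronger of them averaged 5.96 in RA controls and 4.51 in RV controls, and the weaker 5.40 and 3.83. In a fit of all probe sets their RA minus RV differences over the stages were 1.10 and 1.28, each with an exact permutation p of 0.00025.

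**Figure D3:**
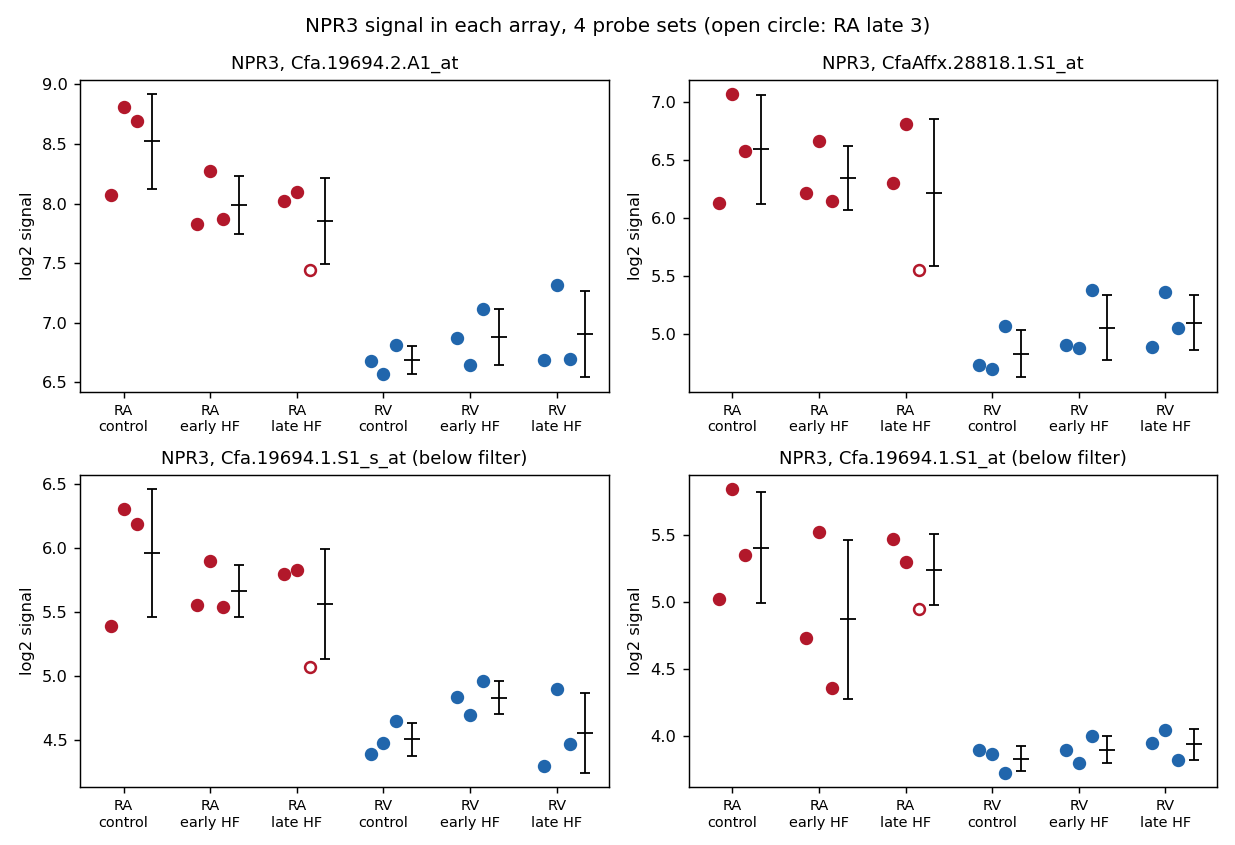
NPR3 log2 signal in each array for its 4 probe sets, each with a vertical axis of its own (RA red, RV blue, open circle the library labelled RA late 3; bars mean and SD, n = 3). In all panels the RA arrays lie above the RV arrays, and the probe set at top left runs from 6.57 in RV to 8.81 in RA.

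The 4 NPR3 probe sets share a gene, so they are not independent measurements; their pairwise r over the 18 arrays ran from 0.920 to 0.977. In the library labelled RA late 3 they read 7.44, 5.55, 5.07 and 4.95, above the highest RV array of each (7.32, 5.38, 4.96 and 4.05). For the first 3 of them this array was the lowest in RA. Its NPPB signal of 7.14, in contrast, lay within the RV range of 6.30 to 11.04.

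With HF, the NPR3 means were below control in RA and above it in RV, and none of these differences was called. For the strongest probe set the RA difference from control was -0.53 in early HF (SE 0.22, limma adjusted p = 0.282) and -0.67 in late HF (SE 0.22, adjusted p = 0.275; -0.46 with adjusted p = 0.273 without RA late 3). Averaged over stages it was -0.60 (SE 0.19, limma adjusted p = 0.158), and -0.50 (SE 0.18, adjusted p = 0.127) without RA late 3. The exact permutation p of the pooled HF arrays was 0.0476 with that library and 0.0536 without it. In RV the averaged difference was 0.205 (SE 0.19, limma adjusted p = 0.755).

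Averaged over the stages, the other NPR3 probe sets gave RA differences from -0.35 to -0.31, although the weakest differed by -0.53 in early HF, as the strongest did. For the second in signal the average over stages was -0.31 (SE 0.24, limma adjusted p = 0.596), and -0.14 without RA late 3. The difference between the chambers in the HF effect was -0.73 for early and -0.89 for late HF for the first probe set (SE 0.31 each, limma adjusted p = 0.865 and 0.588), and -0.68 for late HF without RA late 3. The RA minus RV gap of NPR3 thus measured 1.84 in controls and 1.11 and 0.95 in HF, but a change in the gap was not called.

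NPR3 is known as a marker of the endocardium and is also strongly expressed in fat. The mean of 3 of the 7 other endocardial markers was 5.54 to 5.68 in RA controls and 5.52 to 5.58 in RV controls, and the mean of 11 of 11 endothelial markers was 7.34 to 7.53 and 7.44 to 7.61, so the ranges of the control chambers overlapped for both lists. In early HF they did not overlap. The mean of the other endocardial markers was 6.82 to 7.29 in RA against 5.55 to 6.10 in RV. Of these 3 markers only POSTN, also on the fibroblast list, had a higher group mean in RA (8.81 against 4.56). POSTN passed the signal filter through RA of HF alone. HAPLN1 was 5.53 against 5.59 and SMOC1 6.88 against 7.14. The endothelial mean was 7.61 to 7.71 in RA of early HF against 7.45 to 7.46 in RV. In late HF the endocardial mean was 5.72 to 7.27 against 5.33 to 6.08. The endothelial mean was then 7.48 to 7.71 against 7.37 to 7.63, and both overlapped. The mean of 9 of 9 adipocyte markers was 8.26 to 8.67 in RA controls and 7.43 to 7.86 in RV controls. The adipocyte mean was 7.81 to 8.40 in RA and 7.60 to 8.63 in RV of early HF, and 7.52 to 8.25 and 7.81 to 8.62 in late HF. The fibroblast markers were also higher in RA than RV controls (9.35 to 9.55 against 8.49 to 8.71), with 3 of 11 called. The part of the endocardial, endothelial, fibroblast and adipocyte markers in the NPR3 difference was not tested.

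**Figure D4:**
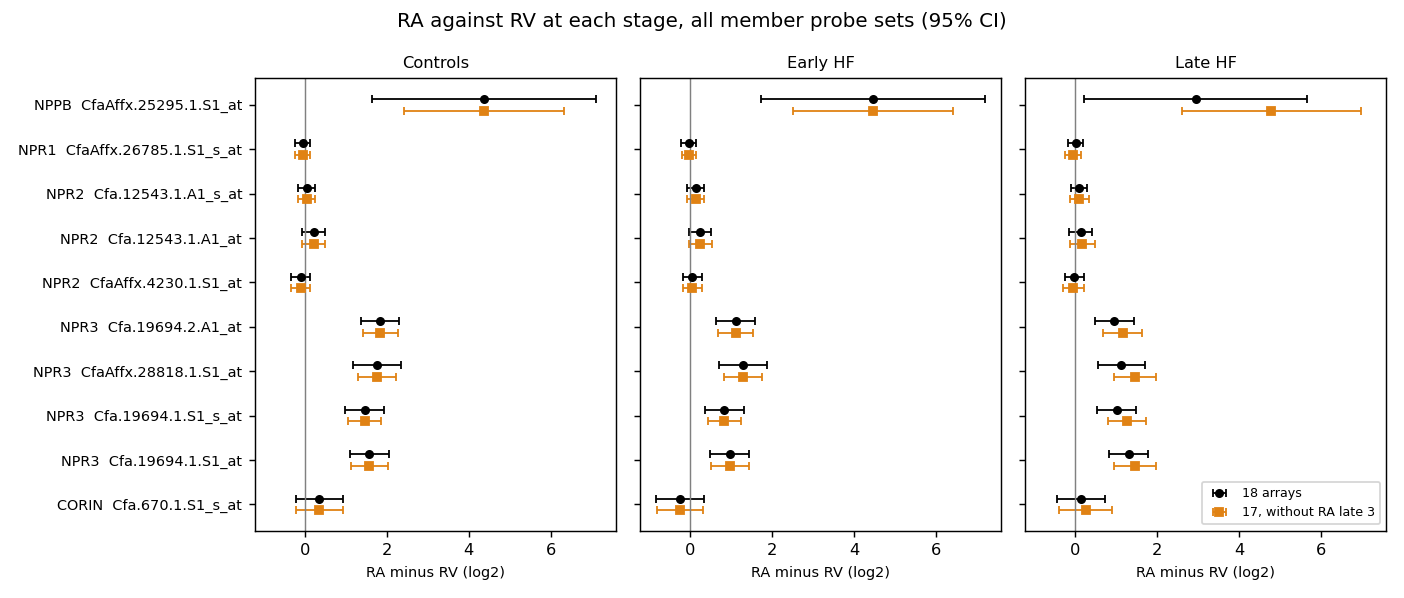
RA minus RV log2 difference (horizontal axis) with its 95% confidence interval for each member probe set, in controls, early HF and late HF. Black circles are fits of all 18 arrays and orange squares fits of 17 without the library labelled RA late 3; NPPB and the 4 NPR3 probe sets lie to the right of 0 in every panel, and NPR1, NPR2 and CORIN lie near 0.

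Read against the whole array, the member calls were as follows. Between control chambers 2 of 8 member probe sets were called, both of NPR3, where 2.9% of all tested probe sets were called in either direction. In early HF the same count was 2 of 8 against 5.65%, and in late HF 0 of 8 against 0.0272%. Averaged over stages 3 of 8 were called (NPPB and 2 of NPR3) against 13.4%. In late HF 3 of 8 had an unadjusted limma p below 0.05, where 11.8% of all probe sets did. Leaving out RA late 3 gave 3 of 8 in each of these comparisons, the same NPPB and NPR3 probe sets, against 5.66%, 8.99%, 3.15% and 21.8% of all probe sets. All calls were higher in RA. Without the NPR3 probe set that passed the filter through RA alone, the counts were 1 of 7 in controls, 1 of 7 in early HF, 0 of 7 in late HF and 2 of 7 over the stages, and 2 of 7 in each without RA late 3.

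For HF the member counts were 0 of 8 in every comparison by limma with all arrays. The background was 0.811% in RA early HF, 0.0699% in RA late HF, 0.105% in RV early HF and 0% in RV late HF. For the mean of the stages it was 0.381% in RA and 0% in RV, and for late against early HF it was 0% in both chambers. In the 17 arrays the RA figures were 3.22% (early), 1.65% (late) and 5.06% (mean of the stages), with 0 of 8 members still called. The number of members with an unadjusted limma p below 0.05 was 2 of 8 in RA early HF (NPR3 and CORIN), where 13.9% of all tested probe sets had one. It was 1 of 8 in RA late HF (NPR3; 11.7% of all), 0 of 8 in RV early HF (8.48%) and 1 of 8 in RV late HF (NPR2; 9.21%). For the mean of the stages it was 1 of 8 in RA (14.3%) and 1 of 8 in RV (10.3%), and for late against early HF 0 of 8 in RA (8.03%) and in RV (5.57%). In the 17 arrays it was 3 of 8 in RA early HF (16.1%), 0 of 8 in RA late HF (19.1%) and 2 of 8 in RA over the stages (20.1%). The difference between chambers in the HF effect was called for 0 of 8 members, against 0.00388% (early) and 0.00777% (late) of all probe sets. At an unadjusted p below 0.05 it was 1 of 8 for each, against 5.45% and 7.87%.

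**Figure D5:**
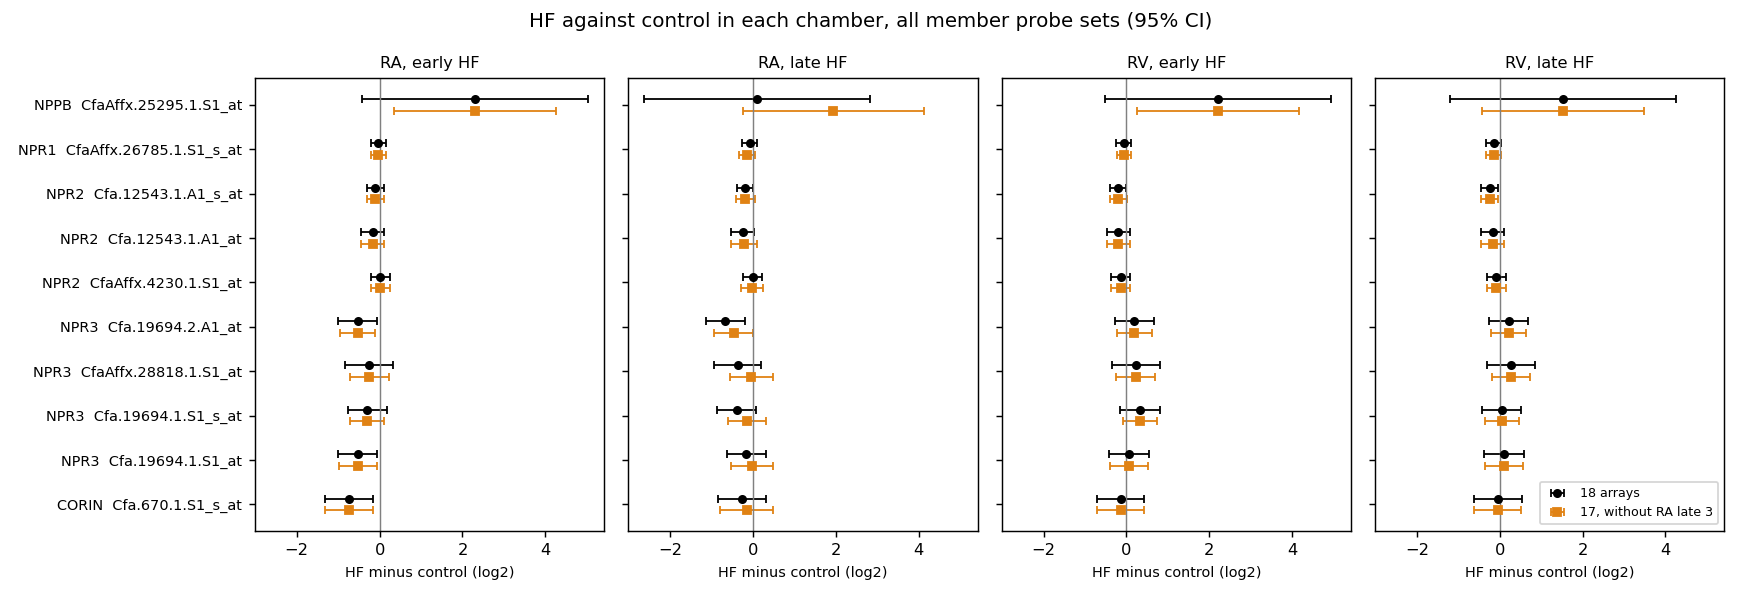
HF minus control log2 difference (horizontal axis) with its 95% confidence interval for each member probe set, by chamber and stage. Black circles are fits of all 18 arrays and orange squares fits of 17 without the library labelled RA late 3; the NPPB intervals are the widest, and its RA late HF estimate moves from 0.10 to 1.94 without that library.

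Genes around these members were taken from lists of 79 genes for the processing and breakdown of the peptides, cGMP synthesis and action, and the transcriptional control of NPPB. Of these, 49 were tested. With all arrays, 0 of 49 were called by limma in any comparison of HF with control or of late with early HF. At an unadjusted p below 0.05 there were 7 of 49 in RA early HF, 5 in RA late HF, 5 in RV early HF and 3 in RV late HF. The shares of all tested probe sets were 13.9%, 11.7%, 8.48% and 9.21% in the same order. The list medians in the 4 comparisons of 1 HF stage with control lay between -0.04 and 0.05, where all tested probe sets had medians between -0.02 and -0.01.

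Among peptide processing genes, PAM and SPINT2 differed between the chambers. PAM, the amidating enzyme that is abundant in atrial granules, was 2.69 higher in RA than RV controls (SE 0.42, limma adjusted p = 0.00242) and 2.00 higher in early HF (adjusted p = 0.0128). SPINT2, an inhibitor of serine proteases, was 1.10 higher in RA controls (SE 0.20, limma adjusted p = 0.00751). Over the stages PAM was 1.97 higher in RA (limma adjusted p = 9.73e-05), SPINT2 0.70 (0.00111) and PCSK5, a proprotein convertase, 0.49 (0.0341), so 3 of the 7 processing genes tested were called higher and 0 lower. Over all lists 9 of 49 genes were called in that comparison, where 13.4% of all probe sets were. PAM is also an atrial marker of the label check and was 10.61 in RA late 3, against 12.50 to 13.40 in the other RA arrays.

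Of 6 tested genes of peptide breakdown, 2 were called lower in RA over the stages: MME (neprilysin) by -0.18 (limma adjusted p = 0.0348) and IDE, the insulin-degrading enzyme, by -0.19 (adjusted p = 0.0303). In late HF the smallest p of all listed genes between the chambers was that of MME (-0.32, SE 0.09, limma adjusted p = 0.287). FAP, a fibroblast protease, was 0.97 higher in RA of HF, averaged over stages (SE 0.33, limma adjusted p = 0.184), and was called without RA late 3 at 1.21 (SE 0.27, adjusted p = 0.0178). It was the 1 listed gene called for HF in the 17 arrays, in arrays whose fibroblast markers were also higher.

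On the cGMP side, GUCY1A2, a subunit of soluble guanylyl cyclase, was 0.36 higher in RA over the stages (limma adjusted p = 0.0345), 1 of 4 tested cGMP makers. PDE3A, a phosphodiesterase, was 0.68 lower in RA over the stages (-0.68, limma adjusted p = 0.00597), 1 of 3 tested phosphodiesterases, and -0.93 in controls (adjusted p = 0.0573). PLN, phospholamban, a target of cGMP-dependent and other kinases, was -0.24 in RA (adjusted p = 0.0422), 1 of 5 tested effectors. PDE1C had the smallest p of the listed genes in RA early HF (-0.49, SE 0.15, limma adjusted p = 0.122) and in RA late against early HF (0.52, adjusted p = 0.405), followed there by EGR1 (-0.50, adjusted p = 0.571) and PDE10A (-0.20, adjusted p = 0.666).

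Of 23 tested regulators of NPPB, the stretch-responsive factor EGR1 was called higher in RA over the stages (0.38, limma adjusted p = 0.0489). Its RV group means were 5.14, 5.28 and 5.13, below the filter limit of 5.31, so it passed the filter through RA alone. Its call, among the 5 listed genes called higher there, is a description and no support for a chamber difference. HAND2, a cardiac transcription factor, was called lower in RA than in RV within early HF (RA minus RV -0.67, SE 0.18, limma adjusted p = 0.0402), where PCSK5 had the next smallest p between the chambers (0.84, adjusted p = 0.0593). In RV of early HF HAND2 was 0.54 above control (limma adjusted p = 0.345), ahead of SPINT2 (0.56, adjusted p = 0.401) and PPP1R12A (0.53, adjusted p = 0.41). In RV late against early HF it was -0.54 (limma adjusted p = 0.771), with RGS2 at 0.22 (adjusted p = 0.872) and MME at 0.18 (adjusted p = 0.899).

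Other regulators had small p-values without being called. In RA of early HF MEF2A was -0.43 (limma adjusted p = 0.144) and TEAD4, which binds NPPB promoter elements of the M-CAT type, was 0.40 (adjusted p = 0.167). In RA of late HF REST, a repressor of fetal cardiac genes, was 0.54 (limma adjusted p = 0.29), PAM was -1.20 (adjusted p = 0.303; -0.42 without RA late 3) and TEAD4 was 0.34 (adjusted p = 0.35). Averaged over the stages TEAD4 was 0.37 in RA (limma adjusted p = 0.154) and REST 0.46 (adjusted p = 0.191).

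In RV of late HF SPINT2 was 0.53 (limma adjusted p = 0.471), HDAC4 -0.29 (adjusted p = 0.529) and MYOCD -0.20 (adjusted p = 0.533). Averaged over the stages SPINT2 was 0.55 in RV (limma adjusted p = 0.338), PPP1R12A 0.41 (adjusted p = 0.424) and MEF2C 0.38 (adjusted p = 0.431). In late HF the chambers differed by 1.20 for PAM (limma adjusted p = 0.346) and 0.51 for SPINT2 (adjusted p = 0.382). For the difference between chambers in the early HF effect, HDAC5 (-0.44, limma adjusted p = 0.702), HAND2 (-0.75, adjusted p = 0.74) and MEF2A (-0.57, adjusted p = 0.74) had the smallest p. In the late HF effect these were PAM (-1.49, adjusted p = 0.607), SPINT2 (-0.59, adjusted p = 0.645) and MYOCD (0.27, adjusted p = 0.645).

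When RA late 3 was left out, more listed genes were called between the chambers. Over the stages these were 8 higher and 7 lower in RA, against 5 higher and 4 lower with all arrays, while the share called over all probe sets went from 13.4% to 21.8%. The added genes were FAP, VASP and PRKG1, higher by 0.77, 0.51 and 0.38, and GUCY1A1, HDAC4 and SPINT1, at -0.46, -0.23 and -0.18. PDE3A was then called in controls, in early and in late HF (-0.93, -0.76 and -0.73; limma adjusted p = 0.00156, 0.00538 and 0.0349). In early HF PCSK5, EGR1 and FAP were also called (0.84, 0.64 and 1.02), and in late HF PAM (1.97, limma adjusted p = 4.83e-05) and SPINT2 (0.79, adjusted p = 0.0177). EGR1 passed the signal filter through RA alone, so this call too is only a description.

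The genes whose profile over the 18 arrays was most like that of each member were found by Pearson's r over 10987 other genes. These r values are descriptions with no test; the arrays share their chambers and stages. NPPB was most like GNA12 (r = 0.970), CORO1C (0.922), MBOAT2 (0.917), VNN1 (0.908) and GLRB (0.907). Over the 17 arrays these were 0.968, 0.921, 0.924, 0.908 and 0.907. Within the 8 other RA arrays the r of the GNA12 probe set with NPPB was 0.997 and within the 9 RV arrays 0.873, while that of VNN1 was 0.693 and 0.633. The GNA12 probe set passed the signal filter through RA alone, with RV means of 3.45, 4.57 and 4.07. Within RV it was 6.70 in RV early 1 and 3.17 to 4.57 in the other arrays.

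NPR3 was most like DKK3 (r = 0.942), TRIM2 (0.930), GJA5 (0.928), CFAP20 (0.920) and PRKAG2 (0.917), and without RA late 3 these values were 0.942, 0.931, 0.949, 0.926 and 0.921. DKK3 and GJA5 are atrial markers of the label check. Within the RA arrays alone the r values were lower, at 0.705 for DKK3 and 0.465 for GJA5, and within RV they were 0.631 and 0.752. Among the members themselves NPPB and NPR3 had r between 0.699 and 0.838 over the 4 NPR3 probe sets, and NPPB and CORIN had r = -0.129.

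CORIN was most like ME3, a mitochondrial malic enzyme (r = 0.924, and 0.927 and 0.928 within RA and RV), CLN3 (0.856), GPI (0.828), USP11 (0.822) and PLPP7 (0.800). Over the 17 arrays they were 0.924, 0.865, 0.830, 0.841 and 0.800. NPR2 was most like MICAL2 (r = 0.853), SRRT (0.822), U2AF1L4 (0.801), TEK (0.794) and RRM1 (0.792), and without RA late 3 0.870, 0.829, 0.800, 0.795 and 0.807. NPR1 was most like CLN6 (0.848), PLEKHA6 (0.832), ANKRD6 (0.829), FARSA (0.822) and FDXR (0.818), and without RA late 3 0.846, 0.825, 0.823, 0.818 and 0.815. NPR1 and its 5 nearest profiles each spanned at most 0.65 over the arrays.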

How the data were processed

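The authors deposited log2 signals per probe set for 18 Affymetrix Canine_2 arrays. MAS5 is named per the submitters' processing notes, with no version or scaling target, and the series' design text names the array with canFam2. The unit was read from the values, and no further normalization was applied. Gene names came from the platform annotation.

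Of 43035 probe sets, 111 controls were dropped, leaving 42924. A filter on mean signal took out the lowest 40%, and 25755 were tested. limma 3.58.1 in R 4.3.3 fitted 6 group means over 18 arrays (12 residual degrees of freedom, variance prior with a trend, two-sided tests). Adjustment followed Benjamini-Hochberg across every tested probe set. Values of the 2 NPR3 probe sets below the filter, and chamber differences of another that passed it through RA alone, come from a fit of all probe sets. The script was tested on simulated data. Exact permutation tests were run in Python 3.11.15 with numpy 2.4.6 and pandas 2.3.3, and figures were drawn with matplotlib 3.10.9. None of the permutation tests kept RA and RV arrays as pairs. No pair of arrays was a duplicate (97.5% or more of values were unequal in each pair).

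The members and gene lists were chosen with earlier results of these data known. Named are all member probe sets, every listed gene called in a comparison or, where fewer than 3 were called, the 3 with the smallest p, the 5 genes most like each member, and the chamber markers. Listed genes were represented by their brightest probe set, by mean over the arrays.

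Deviations from the group mean correlated between same-numbered RA and RV arrays at 0.36, 0.24 and 0.42 (controls), 0.17, 0.26 and 0.15 (early HF) and 0.05, -0.42 and 0.15 (late HF). The numbers were taken as pairs in controls and early HF. The block over all 18 arrays also joins the late HF arrays, and a block over control and early HF arrays was added. Alternatives changed the filter, scaling, variance prior, weights, block and arrays. No sequences or coordinates are given, since none of the array's build were at hand.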

Additional observations from a re-analysis of the deposited data

How the results depend on the processing

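Over the alternatives, 404 counts of called members kept their side of the threshold or stayed within 1.5 times, and 5 rose from 0. For RA against RV in late HF the count of 0 became 3 without RA late replicate 3, 3 with no filter on low signal and without it (5 with the 2 NPR3 probe sets that this setting lets in), 3 with the replicate block and without it, and 4 with array weights. For RA late against early HF it became 1 with array weights. The array weights did not converge (RA late 2 had a weight of 17.96 and the others 0.253 to 1.76); under them CORIN was called in RA late against early HF (1.29, limma adjusted p = 0.0021) and between the chambers in late HF (0.85, adjusted p = 0.00453). Of single members, 3388 values kept their side of the threshold, 38 crossed to called, and 0 called values were lost or turned. The 3 alternatives that combine or restrict choices (the block over controls and early HF only, and no filter or the block without RA late 3) were chosen after seeing the data.

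Leaving out 1 array at a time, the NPPB difference in controls ran from 3.54 to 5.44 and was called in 1 of 18 fits (without RA late 3); in early HF it ran from 3.35 to 5.70 and was called in 4 (without RA control 1, RA late 1, RA late 3 or RV early 1). Over the stages it was called in 18 of 18 (3.55 to 4.54). The strongest NPR3 probe set was called in 18 of 18 in controls, in early HF and over the stages. So was the NPR3 probe set second in signal, but these fits used the filter that it passed through RA alone. Its calls there add no support. With the replicate block over control and early HF arrays only, the NPPB limma adjusted p was 0.00298 and 0.00166; fitted on the groups compared alone it was also called. With the block, no other call among the members changed when all 18 arrays were used. Within a chamber the numbers did not pair the arrays, and blocking by them gave 0 called members for HF. The NPR2 probe set second in signal was called between the chambers with array weights (adjusted p = 0.0112) and with the block without RA late 3 (0.0367). The number of arrays limits the precision, and low signals have no detection call.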

Other observations

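The profile nearest to NPPB was that of 1 of the 2 probe sets annotated as GNA12, a G protein alpha subunit. Its signal spanned 6.74 over the arrays, and it passed the signal filter through RA alone. It was 3.69, 7.12 and 8.49 in RA controls, 9.91, 9.46 and 9.09 in RA of early HF, and 9.25, 8.47 and 3.44 in RA of late HF, the last in the library labelled RA late 3. In RV it was 3.31, 3.19 and 3.84 in controls, 6.70, 3.17 and 3.85 in early HF and 4.57, 4.13 and 3.51 in late HF. The array with the highest RV signal, early HF replicate 1, was also the one with the highest NPPB, and RA control 1 was the lowest RA control for both.

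The other GNA12 probe set did not share this profile: it lay within 0.41 over all 18 arrays, with group means of 5.57 to 5.76, and its r with NPPB was 0.365 against 0.970. The 2 probe sets of 1 gene symbol therefore gave different pictures, and which transcript the first one measures was not tested.

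In the library labelled RA late 3 the members did not move together. NPPB (7.14) was at the RV level, all 4 NPR3 probe sets were above every RV array, and CORIN (8.24), NPR1 (6.29) and NPR2 (7.70) lay within the ranges of both chambers.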
